A study of Homo sapiens with 6 samples.

Results

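The ID proteins (inhibitors of DNA binding) and the E proteins they bind were followed in HEK293T cells that express a bacterial polyphosphate kinase. The 7 genes were taken by symbol: ID1, ID2, ID3 and ID4, and the E-protein genes TCF3, TCF4 and TCF12. All 7 matched exactly 1 row of the 58051 genes in the table. The family was picked with the outcome of this comparison known, ID3 being among the largest falls. All differences of these 7 genes between the groups are therefore given as descriptions, with no p-value. Where a member is said to be called or not called, its row in the fit across all genes is being described. Such a call is not independent evidence, in the main analysis or in the alternatives.

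HEK293T is a widely used line derived from human embryonic kidney, with the SV40 T-antigen. The controls (empty vector, 3 libraries) were transfected with pcDNA3.1- and the treated cells (ppk1, 3 libraries) with pcDNA3.1-ppk1, which carries the polyphosphate kinase gene. All cells were harvested 48 hours after transfection. Libraries are lettered B, C and D, and a letter joins 1 control and 1 ppk1 library as matched biological replicates. The protocol gives a plasmid amount of 2 to 28 µg without saying which was used for these libraries. Transfection was transient, so a library may mix cells with and without the plasmid, and the share of transfected cells was not analysed here. Library totals ran from 40851783 to 67122986 counts. All 6 markers chosen for the line (NEFL, NEFM, INA, PAX2, LIN28B and EN2) had a mean above 1 CPM, and their summed level was 420.0 to 496.5 CPM with the empty vector and 428.7 to 439.4 CPM with ppk1. CPM is the count of a gene scaled to the library total. Of the 5 endothelial markers, EMCN had no count and the sum of all 5 stayed at or below 0.292 CPM in every library. The 5 leukocyte markers summed to 6.23 to 8.10 CPM with the empty vector and 7.55 to 8.64 CPM with ppk1, with PTPRC and CD3E near 0. Of those 5, edgeR called CORO1A higher and LCP1 lower (log2 fold changes 0.49 and -0.54), and of the 6 markers of the line INA higher and NEFL lower (0.25 and -0.29). Fibroblast markers summed to 20.4 to 25.3 CPM with the empty vector and 23.8 to 24.1 CPM with ppk1, and skeletal muscle markers to 2.12 to 2.33 and 2.44 to 2.90 CPM. The part of these genes in the results was not tested.

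E proteins are helix-loop-helix transcription factors with a basic region that contacts DNA at E-box sequences. They act as dimers with each other or with tissue-restricted partners such as MYOD1 or the neurogenins. ID proteins have the helix-loop-helix but no basic region: they pair with E proteins and hold them off DNA, and they are known for keeping cells proliferating and undifferentiated. ID genes are also well-known direct targets of BMP signalling through SMAD1, SMAD5 and SMAD9.

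The promoters of the 4 ID genes are shown because these genes differ in the size of their response. Each sequence is the 250 bases before the annotated start, read 5′ to 3′ on the gene's strand, from RefSeq (build GRCh38.p14). All 4 ID genes matched that table. The positions are chr20:31605039-31605288 for ID1 and chr2:8681806-8682055 for ID2, both on the plus strand. ID3 is at chr1:23559502-23559751 on the minus strand, and ID4 at chr6:19837120-19837369 on the plus strand. Capitals mark any match, on either strand, to TATAA (the TATA box), to CCAAT, to the E-box CANNTG, to GGCGCC (a sequence bound by BMP-activated SMADs) or GCGNGGGCG (the sequence bound by EGR factors).
ID1: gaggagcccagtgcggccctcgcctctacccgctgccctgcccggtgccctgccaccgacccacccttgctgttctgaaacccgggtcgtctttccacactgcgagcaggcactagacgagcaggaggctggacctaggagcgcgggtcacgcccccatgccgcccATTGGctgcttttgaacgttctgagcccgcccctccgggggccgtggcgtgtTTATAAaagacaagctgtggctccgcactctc
ID2: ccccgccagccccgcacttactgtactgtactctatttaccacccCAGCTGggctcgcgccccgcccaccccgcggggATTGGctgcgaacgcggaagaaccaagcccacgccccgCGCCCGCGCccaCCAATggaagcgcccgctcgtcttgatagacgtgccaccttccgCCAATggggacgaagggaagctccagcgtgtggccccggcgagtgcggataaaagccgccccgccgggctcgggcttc
ID3: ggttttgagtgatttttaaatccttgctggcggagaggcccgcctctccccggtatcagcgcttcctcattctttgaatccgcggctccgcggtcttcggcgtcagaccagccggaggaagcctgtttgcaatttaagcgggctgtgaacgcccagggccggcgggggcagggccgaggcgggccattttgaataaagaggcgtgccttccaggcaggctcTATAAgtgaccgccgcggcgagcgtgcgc
ID4: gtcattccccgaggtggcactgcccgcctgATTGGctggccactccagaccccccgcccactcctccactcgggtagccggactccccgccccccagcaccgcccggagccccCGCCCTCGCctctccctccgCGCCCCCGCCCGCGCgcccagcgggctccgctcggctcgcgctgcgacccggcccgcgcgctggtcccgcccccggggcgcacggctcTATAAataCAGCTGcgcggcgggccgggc

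A match to TATAA stands 25 to 29 bases before the start in ID3 and ID4 and 27 to 32 bases before it in ID1, where it reads on both strands. None of these letters was found in the ID2 window. Of 35116 windows of the same length in the RefSeq table, 18.9% hold these letters. The motif CCAAT matched 3 times in ID2, once in ID1 and once in ID4, but not in ID3 (32% of all windows hold it). The E-box matched once in ID2 and once in ID4, as CAGCTG in both (61.8% of all windows). GCGNGGGCG matched 3 times in ID4, with 2 of the matches overlapping, and once in ID2 (8.41% of all windows). GGCGCC matched in none of the 4 (16.4% of all windows). Sequence further upstream was not searched, so the lack of a match does not tell whether these genes have SMAD sites outside the windows. The windows had a GC content of 66% (ID1), 69.2% (ID2), 62% (ID3) and 78.8% (ID4). None of the 5 motifs was found in all of ID1, ID2 and ID3, and ID3 held only TATAA. These matches describe the windows and say nothing about binding.

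All 4 ID genes were lower with ppk1 and the 3 E-protein genes were not called different. ID3 stood at 18.3% of its empty vector level, ID2 at 34.9%, ID1 at 35.4% and ID4 at 73.5%. TCF3, TCF4 and TCF12 stood at 112.6%, 104.2% and 91.2%. In the edgeR quasi-likelihood fit across 19574 genes, with the letter as a block, 4 of the 7 members had a Benjamini-Hochberg adjusted p below 0.05, all 4 of them ID genes and lower. In that fit 9.08% of all genes were called, 5.04% lower and 4.04% higher, so that 44.5% of the calls were higher (31.1% with upper-quartile scaling), and nothing is read from the comparison of these shares, since the members were chosen on this contrast. The share called over all genes was 2.4% with no replicate block (4 members called), 2.06% without replicate C (3 members) and 12.5% without replicate B (5 members). With bulk RNA, fewer cells with a transcript and less transcript per cell cannot be told apart.

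**Figure D1:**
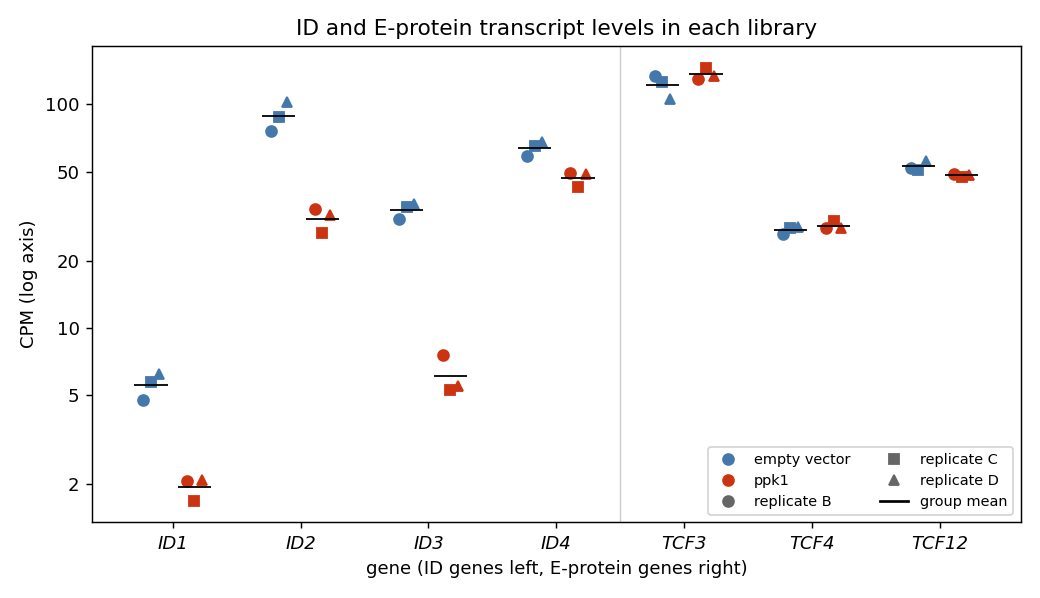
CPM on a log axis for the 7 genes in each of the 6 libraries, with empty vector in blue, ppk1 in red, 1 symbol per replicate letter and a line at each group mean. The ppk1 points of ID1, ID2 and ID3 lie far below all empty vector points, from 30.6 to 36.0 CPM down to 5.30 to 7.58 CPM for ID3.

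ID3 (ENSG00000117318, chromosome 1) encodes an inhibitor studied above all in lymphocyte development and in endothelial cells. Its level was 30.6, 34.6 and 36.0 CPM in empty vector libraries B, C and D, and 7.58, 5.30 and 5.50 CPM in the ppk1 libraries. The groups were far apart, and ppk1 library B was the highest of its group. The raw counts were 1615, 1535 and 1471 with the empty vector and 506, 254 and 230 with ppk1. The fitted log2 fold change was -2.45 (SE 0.10), a 5.47-fold lower level, and the pairs gave -2.01, -2.71 and -2.71. ID3 had the third lowest log2 fold change of the 15101 tested genes whose normalized counts averaged 50 or more.

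ID2 (ENSG00000115738, chromosome 2) encodes the ID protein that is also known to bind the retinoblastoma protein. It was measured at 76.3, 87.6 and 103.1 CPM with the empty vector and at 33.9, 26.6 and 32.1 CPM with ppk1. Every ppk1 library was below every empty vector library by more than the range of either group. The log2 fold change was -1.52 (SE 0.09), with -1.17, -1.72 and -1.68 in pairs B, C and D.

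ID1 (ENSG00000125968, chromosome 20), the member most used as a readout of BMP signalling, was the ID gene with the fewest reads. Its counts were 251, 255 and 255 with the empty vector and 138, 81 and 87 with ppk1. This corresponded to 4.75, 5.76 and 6.24 CPM against 2.07, 1.69 and 2.08 CPM, again without overlap. The log2 fold change of -1.50 (SE 0.14) was close to that of ID2, at a mean of 5.58 CPM with the empty vector against 89.0 CPM for ID2. Pairs B, C and D gave -1.20, -1.77 and -1.58.

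ID4 (ENSG00000172201, chromosome 6), known for its part in neural and mammary progenitors, changed least among the ID genes. It was at 59.0, 65.2 and 67.7 CPM with the empty vector and at 49.4, 42.7 and 48.9 CPM with ppk1. The groups did not overlap, but the gap between them was narrow. The log2 fold change was -0.44 (SE 0.08), with -0.26, -0.61 and -0.47 in the pairs. Without replicate C the log2 fold change was -0.36 and ID4 was no longer called, while ID1, ID2 and ID3 were called in the main analysis and in all 9 alternatives.

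In pair B the difference was the smallest for each of the 4 ID genes, and among them, in each pair, ID3 had the lowest log2 ratio and ID4 the highest. Over all genes, ppk1 library B had the largest total, 67122986 counts. Whether depth or transfection in replicate B bears on this was not tested.

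**Figure D2:**
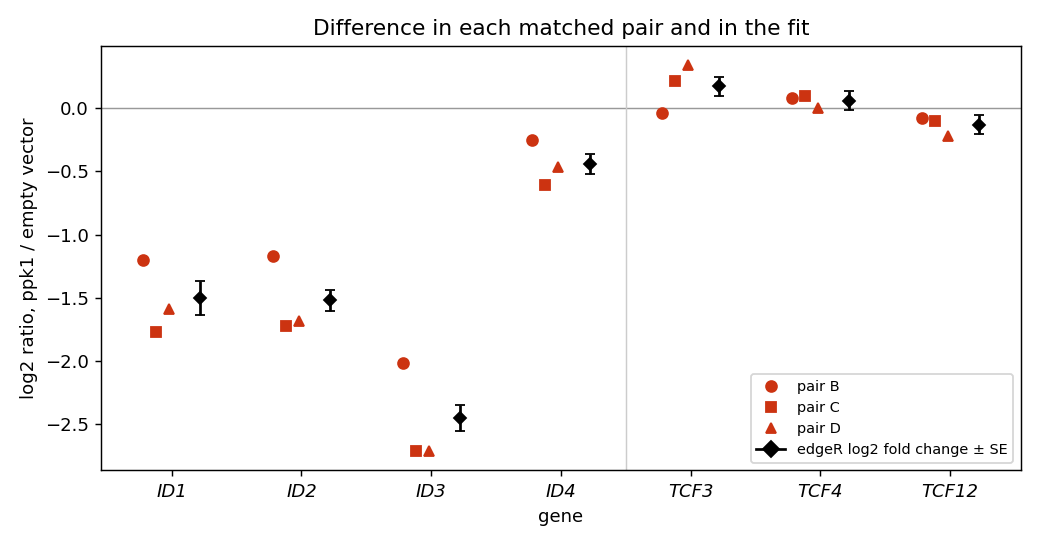
Log2 ratio of ppk1 to empty vector for each gene in the matched pairs B, C and D (red symbols) and the edgeR log2 fold change with its standard error (black diamonds). All pairs of the ID genes lie below 0, with pair B nearest to it, and the E-protein genes lie between -0.22 and 0.34.

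The E-protein genes encode the DNA-binding partners. TCF3 (ENSG00000071564, chromosome 19), whose products are the best known partners in B-cell development, was at 133.9, 125.8 and 106.3 CPM with the empty vector. It was at 130.2, 146.2 and 134.4 CPM with ppk1, so that the groups overlapped. The pairs disagreed, with log2 ratios of -0.04, 0.22 and 0.34 in B, C and D. The fitted log2 fold change was 0.17 (SE 0.08), with a 95% interval from 0.02 to 0.32. Without replicate B it was 0.28 and TCF3 was called higher, the only setting of the 9 in which an E-protein gene was called.

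TCF4 (ENSG00000196628, chromosome 18), the gene of the Pitt-Hopkins syndrome and not the Wnt effector TCF7L2 that once shared its name, hardly differed between the groups. It was at 26.4, 28.1 and 28.2 CPM with the empty vector and at 27.9, 30.1 and 28.1 CPM with ppk1. The log2 fold change was 0.06 (SE 0.08), with a 95% interval from -0.10 to 0.21.

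TCF12 (ENSG00000140262, chromosome 15), a broadly expressed E protein, was at 51.9, 50.9 and 56.1 CPM with the empty vector and at 49.1, 47.5 and 48.2 CPM with ppk1. The ppk1 values were all lower, without overlap. The log2 fold change was -0.13 (SE 0.08), the 95% interval ran from -0.28 to 0.02, and the gene was not called. In all, 5 of the 7 members had groups that did not overlap, against 25.6% of all tested genes. Of the 3 E-protein genes, edgeR called 0 and DESeq2 also called 0, although the 95% interval of TCF3 (0.02 to 0.32) left out 0. The fit adds up reads over all isoforms, so a shift between isoforms of an E-protein gene would not be seen in these counts.

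Antisense transcripts at the ID2 and ID4 genes were low. ID2-AS1, whose exons overlap those of ID2 on the opposite strand, had 42, 46 and 29 counts with the empty vector and 26, 9 and 17 with ppk1. Its log2 fold change was -1.35 (SE 0.29, edgeR adjusted p 0.0011). The strand setting of the counting is not given in the sources used here, so reads of ID2 and ID2-AS1 may not be fully separated. Exons of TCF4, RUNX1T1, RBL1 and ELK4 also overlap those of a gene on the opposite strand. RP4-625H18.2, which lies opposite to ID4 without shared exon bases, had 15, 14 and 12 counts against 2, 3 and 2. Its log2 fold change was -2.66 (SE 0.52, edgeR adjusted p 0.00036), at an average of only 8.46 normalized counts. Counts of ID2-AS1 were at most 1.27% of those of ID2 in any library, and counts of RP4-625H18.2 at most 0.484% of those of ID4. No sequence of 50 bases of ID1, ID3, ID4, TCF3 or TCF12 transcripts occurs in another gene of GENCODE release 29, and for ID2 and TCF4 the share was 0.651% and 0.172%.

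Levels of different genes were compared per transcript length, as TPM (counts divided by length and scaled to a common total), with the union of annotated exons as the length. With the empty vector ID2 was the most abundant member, at 157.0 ± 18.4 TPM (mean ± SD, n = 3), followed by ID4 at 106.4 ± 4.93. TCF3 (78.5 ± 11.6) and ID3 (73.2 ± 4.42) came next, and their ranges overlapped. TCF12 (21.9 ± 0.48), ID1 (17.6 ± 1.92) and TCF4 (3.86 ± 0.12) were lower, each without overlap with its neighbour.

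With ppk1 the order was TCF3 (80.4 ± 1.85 TPM), ID4 (71.9 ± 8.19), ID2 (50.2 ± 7.94), TCF12 (18.3 ± 0.96), ID3 (12.2 ± 2.93), ID1 (5.66 ± 0.83) and TCF4 (3.68 ± 0.04; all mean ± SD, n = 3). No neighbours in this order overlapped, although the nearest libraries of TCF3 and ID4 were at 79.2 and 78.0 TPM. ID3 was in the fourth place with the empty vector and in the fifth, below TCF12, with ppk1. The annotated length matters most for TCF4, whose many isoforms span 27828 exon bases while its longest transcript has 8343. With the longest transcript as the length, TCF4 was at 9.41 and 9.05 TPM in the 2 groups and above ID1 with ppk1 (4.16 TPM). TCF3, ID4 and ID3 then overlapped with the empty vector, at 78.3, 77.7 and 76.7 TPM.

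**Figure D3:**
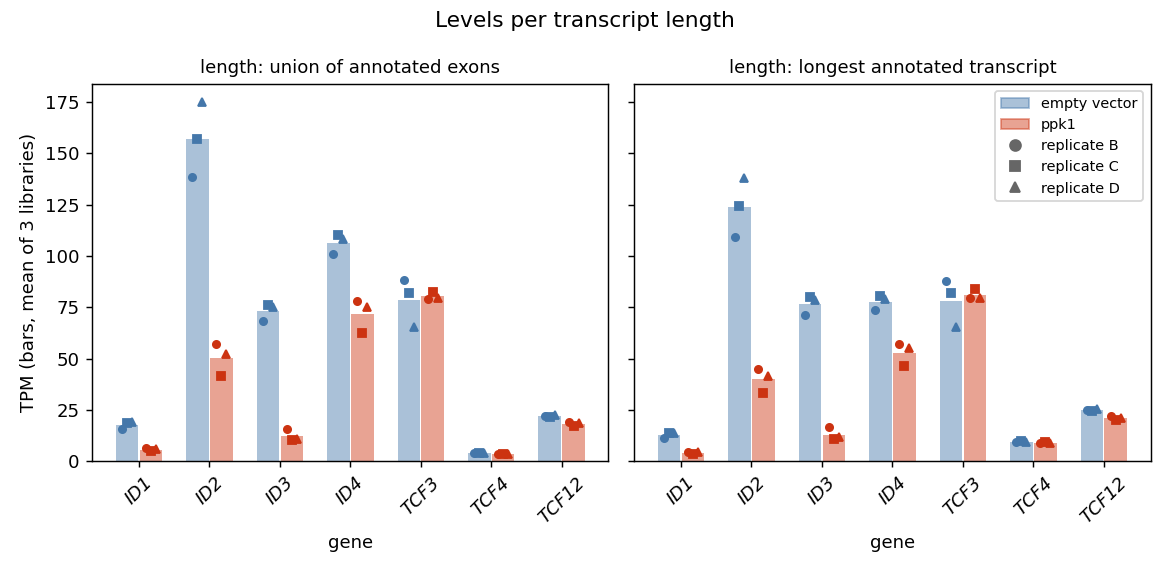
TPM of the 7 genes with the union of exons (left) or the longest transcript (right) as the length, with bars at the mean of 3 libraries and symbols for the replicates. ID2 is the tallest bar with the empty vector under both lengths, at 157.0 and 123.8 TPM, and TCF3 is the tallest with ppk1.

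The summed ID level was 322.8, 362.0 and 377.6 TPM in empty vector libraries B, C and D, and 156.6, 118.8 and 144.5 TPM with ppk1. The summed E-protein level was 113.9, 107.1 and 91.6 TPM against 102.1, 103.5 and 101.5 TPM. Their ratio was therefore 2.83, 3.38 and 4.12 with the empty vector and 1.53, 1.15 and 1.42 with ppk1, without overlap. With the longest transcript as the length the ratio was 2.62 ± 0.47 and 0.99 ± 0.15 (mean ± SD, n = 3), so whether ID transcripts still outnumbered E-protein transcripts with ppk1 depended on the length used. The makeup of the ID sum also differed. ID4 made up 28.7 to 31.2% of it with the empty vector and 49.8 to 52.7% with ppk1, while the share of ID3 was 19.9 to 21.1% against 7.63 to 9.95%. These are transcript levels, and protein was not measured.

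**Figure D4:**
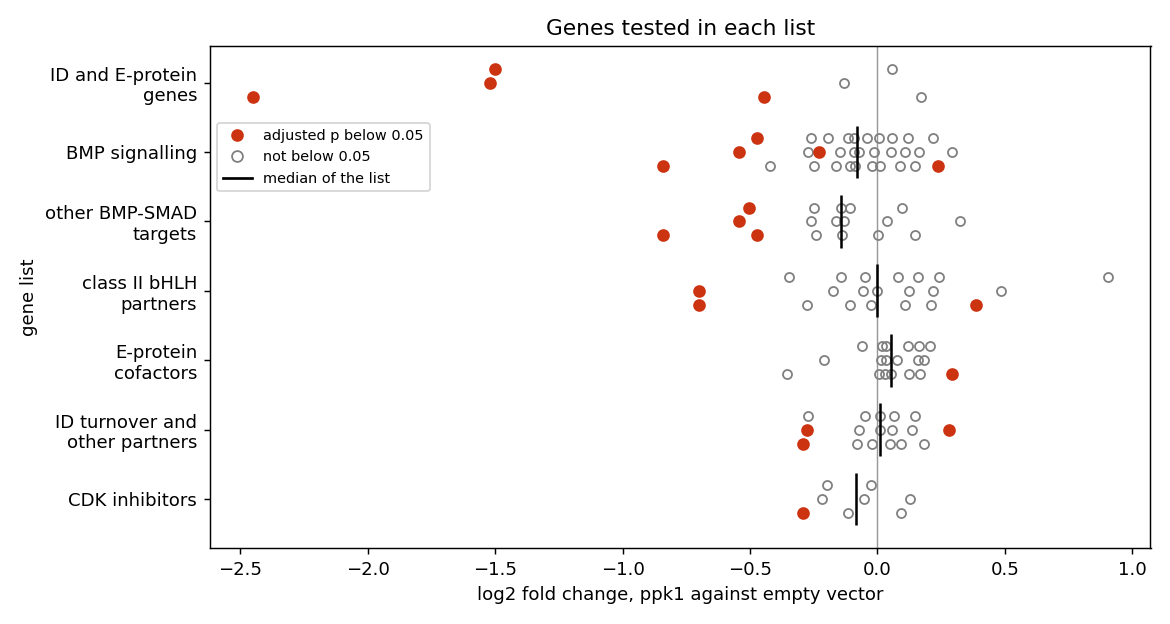
Log2 fold changes (ppk1 against empty vector) of the tested genes in the family and in 6 lists of related genes, 1 point per gene, filled where the edgeR adjusted p was below 0.05, with a line at the median of each list. Points of the lists lie between -0.84 and 0.90, and ID1, ID2 and ID3 lie to the left of all of them.

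The list of BMP ligands, receptors, SMADs and inhibitors had 32 tested genes of 34, with 4 called lower, 1 called higher and 27 not called, or 15.6% called against 9.08% of all genes. Its median log2 fold change was -0.08, against 0.01 over all genes tested. All 6 lists of related genes were chosen with earlier results of these data known, so their counts and direction are not independent evidence. For this list and the next, those results included SMAD6 and SMAD9. SMAD6 and SMAD9 are described with no p-value, and their calls are descriptions too. Of the 5 tested ligands edgeR and DESeq2 called 0 (0 at an unadjusted p below 0.05 in either), and of 10 tested receptors and coreceptors also 0 (3 in edgeR and 1 in DESeq2 unadjusted). Without replicate B edgeR called 2 of these receptor genes. SMAD1 and SMAD5, the signal transducers, and SMAD4, their shared partner, were not called by either tool (0 unadjusted). BMP4 was at 10.9 CPM with the empty vector and 10.6 with ppk1, BMP7 at 49.7 and 52.8, BMPR1A at 45.1 and 42.8, BMPR2 at 52.0 and 48.8, and SMAD5 at 165.7 and 155.8 (group means). The 3 receptor and coreceptor genes with an unadjusted edgeR p below 0.05 were BMPR1B, ACVR2A and RGMA. Their log2 fold changes were -0.27, -0.19 and 0.22, and the groups did not overlap, as for 25.6% of all tested genes. The groups did not overlap for BMP7 and SMAD5 either, but they did for BMP4, BMPR1A and BMPR2.

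The called genes were NOG, SMAD6, SMAD9, SKIL and SKI. NOG, which encodes the secreted BMP antagonist noggin, was at 7.71, 7.81 and 6.22 CPM with the empty vector and at 4.33, 3.25 and 4.62 with ppk1, so it fell without overlap. Its log2 fold change was -0.84 (SE 0.12, edgeR adjusted p 2.7e-06). SMAD6, the inhibitory SMAD of the BMP branch, was at 22.4, 25.2 and 20.3 CPM with the empty vector and at 15.3, 15.5 and 15.6 CPM with ppk1. The log2 fold change of SMAD6 was -0.54 (SE 0.08). SMAD9, a BMP-activated SMAD that is itself raised by the pathway, was at 31.7, 30.2 and 30.7 CPM against 23.7, 20.7 and 22.4 CPM, a log2 difference of -0.47 (SE 0.08). SKIL and SKI, related SMAD corepressors, moved in opposite directions, by -0.23 and 0.24 on the log2 scale (edgeR adjusted p 0.043 and 0.041). NOG, SMAD6 and SMAD9 were called in each of the 9 alternatives, whereas SKI and SKIL lost the call in most of them, including without replicates C and D (0.23 and 0.13 for SKI, -0.27 and -0.21 for SKIL).

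The second list held other direct targets of BMP-activated SMADs and shares NOG, SMAD6, SMAD9 and 3 further genes with the first. Of its 17 tested genes, 4 were called lower and 13 were not called. This was 23.5% called, against 9.08% of all genes called and 5.04% called lower. The median log2 fold change was -0.14. The additional fall was ZNF423, a zinc finger partner of SMADs, from 8.58, 7.94 and 6.56 to 5.39, 5.57 and 5.36 CPM. Its log2 fold change was -0.50 (SE 0.11, edgeR adjusted p 0.0015), and it was not called without replicate C (-0.49). Of the 17 tested genes, 8 had an unadjusted edgeR p below 0.05, the called ones included, and all 8 were lower (5 with DESeq2, all lower). The share of all genes at that unadjusted threshold was not worked out. SMAD7 (-0.25), BAMBI (-0.26) and MSX2 (-0.24) had log2 fold changes below 0 and were not called. HEY1 (0.04), HEY2 (0.00) and MSX1 (0.10) were not called either. The groups did not overlap for any of these 6 genes other than HEY2, as for 25.6% of all tested genes. None of the called targets reached the log2 fold change of ID1, ID2 or ID3, but all 4 were lower than that of ID4 (-0.44). The members were chosen on this contrast, so this order is a description.

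Among 44 genes of tissue-restricted partners of E proteins, 21 were tested, against 19574 of all 58051 genes. The other 23 had too few counts, among them NEUROD1, MYOG and LYL1. Of the 21 tested, 2 were called lower, 1 higher and 18 not called, 14.3% called against 9.08% of all genes, with a median log2 fold change of 0.00. NHLH2, a neuronal helix-loop-helix factor, fell from 5.15, 4.27 and 4.16 to 2.86, 2.17 and 3.47 CPM (log2 fold change -0.70, SE 0.14, edgeR adjusted p 0.00038). OLIG2, an oligodendrocyte lineage factor, rose from 7.90, 8.62 and 7.10 to 10.4, 10.2 and 10.2 CPM (0.39, SE 0.10, edgeR adjusted p 0.0085), and was not called with DESeq2, with no replicate block or without replicate C (0.46) or D (0.30). ATOH1, named because it is the remaining call, had 47, 53 and 48 counts against 38, 31 and 33 (log2 fold change -0.70, edgeR adjusted p 0.037). ATOH1 was not called with DESeq2 or with no replicate block (both -0.71), nor without replicate B (-0.73), C (-0.61) or D (-0.78). The more abundant HAND1 (17.6 and 15.7 CPM), TWIST1 (13.2 and 12.8) and TCF24 (12.0 and 12.6, group means) were not called.

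Of 19 tested coactivators and corepressors of E proteins, 1 was called (5.26%, against 9.08% of all genes). The median log2 fold change was 0.05. At an unadjusted edgeR p below 0.05 there were 6, all higher, but this varied with the setting. There were 3 with upper-quartile scaling, 0 without replicate C, and 3 without replicate D (2 higher, 1 lower). The share of all genes at that unadjusted threshold was not worked out, so nothing is read from these counts. The called gene was RUNX1T1, a corepressor known to bind E proteins, which rose from 26.0, 26.4 and 25.0 to 29.6, 34.8 and 30.5 CPM. Its log2 fold change was 0.29 (SE 0.08, edgeR adjusted p 0.011), and it was not called with no replicate block (0.30) or without replicate C (0.24). The acetyltransferase genes EP300 (0.05) and CREBBP (0.17) had log2 fold changes that did not pass the test.

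Genes of ID protein turnover and of partners outside the helix-loop-helix family gave 3 calls among 17 tested genes (17.6%, against 9.08% of all genes), 2 lower and 1 higher, with a median log2 fold change of 0.01. RBL1, a relative of the retinoblastoma gene, fell from 50.4, 52.3 and 53.3 to 41.7, 44.3 and 41.4 CPM (-0.29, SE 0.08, edgeR adjusted p 0.0079). ELK1 and ELK4, ternary complex factors of the ETS family that ID proteins are known to bind, moved in opposite directions. ELK1 rose by 0.28 and ELK4 fell by 0.28 on the log2 scale (edgeR adjusted p 0.013 and 0.014), and the CPM ranges of ELK4 overlapped between the groups. None of the 3 was called without replicate C (-0.32 for RBL1, 0.21 for ELK1 and -0.18 for ELK4), and ELK1 and ELK4 were not called without the block. USP1, which removes ubiquitin from ID proteins, was at 306.2 and 296.0 CPM, and FZR1, which promotes their degradation, at 52.7 and 56.3 CPM (group means, neither called).

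Among the cyclin-dependent kinase inhibitors, several of which are known E-protein targets, 1 of 8 was called (12.5%, against 9.08% of all genes) and the median log2 fold change was -0.09. CDKN2B was at 11.4, 11.1 and 11.4 CPM with the empty vector and at 9.21, 9.28 and 9.21 with ppk1 (-0.29, SE 0.10, edgeR adjusted p 0.042), a call that was lost in 5 of the 9 alternatives, among them without replicate B (-0.28) and without replicate C (-0.31). CDKN1A, the best known target of the group, was at 41.3 and 43.8 CPM and CDKN1B at 55.1 and 47.4 CPM (group means, log2 fold changes 0.09 and -0.22, not called).

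The genes whose profile over the 6 libraries was most like that of ID3 were MGAM, HIST2H4A, DHRS2, GAS6-AS1 and KRTAP5-AS1. The 13818 candidates were tested genes with an average of 50 or more normalized counts, without clone names and with the members left out. Likeness was the root-mean-square difference of gene-centred log2 CPM, and it was 0.29, 0.29, 0.37, 0.38 and 0.39. Their log2 fold changes ran from -2.72 (HIST2H4A) to -1.79 (GAS6-AS1). DHRS2, a dehydrogenase gene, was the most abundant, at 10.0, 13.5 and 11.5 CPM with the empty vector and 3.31, 3.44 and 2.87 with ppk1. HIST2H4A, a histone H4 gene, shares 97.5% of its 50-base stretches with HIST2H4B, so its value is uncertain. MGAM, GAS6-AS1 and KRTAP5-AS1 overlap exons of other genes, on the opposite strand or, for GAS6-AS1, on both.

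Among the same candidates, nearest to ID1 were DNAH7, CFAP43, EFCAB6, TXLNB and COPZ2, with differences of 0.10, 0.14, 0.15, 0.16 and 0.17. ID2, as a member, was not a candidate. Its log2 ratios in pairs B, C and D (-1.17, -1.72 and -1.68) were close to those of ID1 (-1.20, -1.77 and -1.58). DNAH7, an axonemal dynein heavy chain gene, was at 2.44, 3.23 and 3.72 CPM against 1.20, 1.08 and 1.12. CFAP43, a gene of the ciliary and flagellar axoneme, was at 7.37, 9.16 and 10.3 CPM against 3.40, 3.42 and 3.97. The 5 log2 fold changes ran from -1.55 (EFCAB6) to -1.30 (CFAP43). EFCAB6 overlaps an antisense gene and TXLNB a gene on its own strand, with which it shares 16.3% of its 50-base stretches. These 10 genes were selected on the same 6 libraries, so their likeness is a description with no test.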

How the data were processed

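RNA was poly(A)-selected and libraries were made with a directional kit, per the labels' protocols. The authors deposited raw counts per Ensembl gene, whole numbers whose sums differ between the 6 libraries. STAR and HTSeq are among the tools in the submitters' processing notes. The genome build, annotation and strand setting are not given in the sources used here. The members and gene lists were chosen with earlier results of these data known.

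Counts were tested with edgeR 4.0.16 in R 4.3.3 (quasi-likelihood, TMM scaling, filterByExpr with a minimum count of 10, Benjamini-Hochberg threshold 0.05) with the replicate letter as a block, because the series' design text states that letters are matched. Deviations from group means correlated at 0.109, 0.135 and 0.0476 between same-letter libraries over 19574 genes and at -0.12 to -0.00506 between others. Standard errors were taken as the size of the log2 fold change over the root of F, and 95% intervals use the t quantile of the fit. CPM uses the TMM-scaled total, and log2 CPM a prior count of 2. In simulated counts for this comparison (19533 genes tested), 95.5% of the planted 1.5-fold and 98.5% of the planted 2-fold changes were recovered. Changes were planted only in genes with an average of at least 50 counts, and every gene was simulated with the same spread between libraries. The recovered shares therefore give no recovery rate for genes with low or more variable counts. TPM used lengths from GENCODE release 29, which held 98.96% of the genes, and no TMM scaling. A difference between the groups in TPM can therefore depart from that in CPM. TCF4, for example, was at 3.86 TPM with the empty vector and 3.68 with ppk1, with a fitted log2 fold change of 0.06. No row lacked a gene (0).

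Besides the 7 members, the genes named are up to 6 called genes per list with an average of 50 or more normalized counts and the same direction in all pairs, and the 5 genes most like ID3 and ID1. Others named are list members whose values are given for context, chosen after their values were seen. The 9 alternatives were RLE and upper-quartile scaling, no filter, a mean of at least 50 counts, DESeq2 1.42.0, no block and leaving out each replicate. Precision is limited by 3 libraries per group, and the limit set by a count of 0 (3 counts) lies at 0.0447 to 0.0734 CPM, for counting error only. Whether replicates came from separate cultures is given only as biological replicates in the design text.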

Additional observations from a re-analysis of the deposited data

How the results depend on the processing

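Of 63 values of the 7 members under the alternatives, 61 kept direction and call, ID4 lost the call without replicate C, TCF3 gained one without replicate B, and 0 changed direction. Log2 fold changes ran from -2.71 to -2.34 for ID3, -1.70 to -1.42 for ID2, -1.67 to -1.38 for ID1 and -0.54 to -0.36 for ID4. Leaving out a replicate gave 3 to 5 called members. Over all genes, 1777 were called, against 470 with no replicate block and 757 with DESeq2, and 406 (without C) to 2435 (without B) when a replicate was left out; the cause was not tested. Of the calls 44.5% were higher, against 31.1% with upper-quartile scaling, 18.9% without the block, 20.2% without replicate C and 51.9% without replicate B.

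For the other named genes, 175 of 206 values kept direction and call, 31 lost the call and 0 changed direction. With no replicate block the calls were 3 (BMP signalling), 1 (class II bHLH), 0 (cofactors, 3 in edgeR at an unadjusted p below 0.05), 1 (ID turnover and partners) and 0 (kinase inhibitors, 2 unadjusted). DESeq2 gave 3, 1 and 0 for BMP signalling, class II bHLH and kinase inhibitors, and no filter gave 3 for BMP signalling and 0 for kinase inhibitors (2 unadjusted in both). RLE scaling, upper-quartile scaling and the stricter filter gave 2 kinase inhibitors. When a replicate was left out, the calls ran from 3 to 6 for BMP signalling, 3 to 4 for BMP targets, 1 to 2 for class II bHLH, 0 to 3 for cofactors, 0 to 3 for ID turnover and partners, and 0 to 1 for kinase inhibitors (without C, edgeR gave 0, 1 and 1 of the last 3 lists unadjusted, and without B 4 kinase inhibitors); the cause was not tested. The ratio of summed ID to E-protein TPM was 2.62 (empty vector) and 0.992 (ppk1) with the longest transcript as length, against 3.45 and 1.37, and ran from 3.11 to 3.75 and from 1.29 to 1.48 when a replicate was left out. At this depth 23 of 44 class II bHLH genes had too few counts to be tested.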
